A study of Mus musculus with 4 samples.

Results

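Cells of neural tissue recognise and hold each other through families of surface proteins, and 47 genes of such families were examined here in engineered neural tissue of the mouse. They comprise neurexins, neuroligins, LRRTM, Slitrk, contactin, Caspr, latrophilin, FLRT, calsyntenin, receptor phosphatase, NCAM, L1, SynCAM and N-cadherin genes, and were chosen by gene symbol. Each of the 47 symbols matched 1 row of the 23874 genes in the deposited count table. Of the 47 genes, 43 had enough counts to be tested. Slitrk4, Cntn2, Cntn5 and L1cam did not.

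The tissue was made from neurospheres, floating clusters of neural stem cells, set in Matrigel, a basement membrane gel, under DMEM/F12 medium with N2, B27 and 20 ng/ml human basic fibroblast growth factor. In the EF group the tissue received a field of 150 mV/mm, applied daily for 30 min over 3 days, and stayed in culture for 7 days afterwards. It is represented by 2 libraries. The noEF group was left without the field and is also represented by 2 libraries, although the labels state 3 replicates per group. The series' design text names a suspension of neural stem cells as the control, whereas the labels of the samples describe engineered tissue in either group, and the labels were followed. The sources used here give no strain, age or sex of the source animals. Whether the replicates were separate cultures is not stated, so the p-values measure the spread between these libraries, which may be technical.

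As background, synapses are held together by pairs of adhesion proteins that meet across the cleft. Neurexins and receptor tyrosine phosphatases of the LAR group sit mainly on the axon side and bind neuroligins, LRRTM and Slitrk proteins on the dendrite side, while latrophilins bind FLRT proteins and teneurins. Contactins, Caspr proteins and the L1 and NCAM immunoglobulin families act in axon growth, bundling and contact with glia, and N-cadherin joins neural progenitors to one another as well as synaptic membranes. Many of these genes are also active in astrocytes and in oligodendrocyte progenitors, so their transcripts do not by themselves stand for synapses.

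Total counts ranged from 33748880 to 34554537 per library. Markers of several cell classes were read beside the adhesion genes, as summed CPM (counts per 1000000, on library sizes scaled by the TMM method). Of 10 neuronal genes 9 were tested and 0 called by edgeR (3 had an unadjusted p under 0.05, and DESeq2 and limma-voom called 0). Their sum was 727 to 757 CPM in EF and 641 to 706 CPM in noEF. Map2 held most of it, with 529 and 497 CPM in EF and 411 and 481 CPM in noEF. The 3 genes went in different directions, with log2 fold changes (EF minus noEF) of 0.20 for Map2, -0.46 for Dcx and -0.48 for Syt1. Stmn2, a tubulin-binding protein of growing neurons, had no count in any library. Of 8 astrocyte genes 4 (Gfap, Aqp4, Gja1 and Aldoc) were called lower, against 4.99% of all tested genes. The astrocyte list summed to 5302 to 5570 CPM in EF and 6102 to 6322 CPM in noEF. Slc1a3 held the largest part and was not called (log2 fold change 0.16), nor were Aldh1l1 (0.03), Slc1a2 (-0.08) and S100b (-0.02). Of 9 oligodendrocyte lineage genes 8 were tested and 2 (Pdgfra and Gpr17) were lower. Their list summed to 2457 to 2803 CPM in EF and 2427 to 2578 CPM in noEF. Olig1 held most of that sum and was not called (0.09). The myelin gene Mog was at or near 0. Of 6 progenitor genes 1, Fabp7, was lower (list sums of 2818 to 3017 and 3766 to 4144 CPM). Of 5 cell cycle genes 5 were higher, against 3.83% of all tested genes (619 to 678 and 346 to 356 CPM). Fibroblast, endothelial and microglial lists summed to at most 2.35 CPM in any library, with Lum, Cdh5, Aif1, Cx3cr1, Csf1r and Tmem119 without a count, and the Schwann cell and neural crest list to at most 3.17 CPM. The part of these shifts in the results below was not tested. In such bulk samples fewer cells of a type and less RNA per cell cannot be told apart.

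The comparison of EF with noEF asks whether the transcripts of these surface proteins differed after stimulation. Adgrl2, Chl1 and Cdh2 rose in EF by 1.45-fold, 1.32-fold and 1.32-fold, and Nrxn3 fell by 2.48-fold (-1.31 on the log2 scale). Tested with edgeR (quasi-likelihood F test, p-values adjusted over 14263 genes by the Benjamini-Hochberg method), 3 of the 43 adhesion genes were thus higher, against 3.83% of all tested genes, and 1 was lower, against 4.99% of all tested genes. Together 9.3% of the adhesion genes and 8.82% of all tested genes were called, so the share called was near the background. The number of higher genes was 1 without EF 1, where Adgrl2 alone passed, and 6 without noEF 2, where Cntn1, Lrrtm1 and Ncam2 joined the 3. The number of lower genes was 0 without EF 1, without noEF 1 and without noEF 2, and without EF 2 the 1 lower gene was Adgrl1 in place of Nrxn3.

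Over all 43 tested genes, the called ones included, the values lay above 0 more often than below. The log2 fold change was above 0 in 33 of the 43 genes (76.7%), compared with 51.1% of all tested genes, and its median was 0.19 compared with 0.01. In 19 genes both EF libraries had a higher CPM than both noEF libraries, compared with 27.6% of all tested genes. In 5 genes both EF libraries were lower, compared with 26.8% of all tested genes. The library noEF 1 held the lowest value for 25 of the 43 genes (58.1%), compared with 30.2% of all tested genes. Without it the median was 0.07, and 25 of the 43 genes were above 0. The genes are also long, with a median of 8080 exon bases compared with 4529 for all tested genes. With the trend of each library on exon length and GC content removed, the median was 0.14, and 26 of the 43 genes were above 0.

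**Figure D1:**
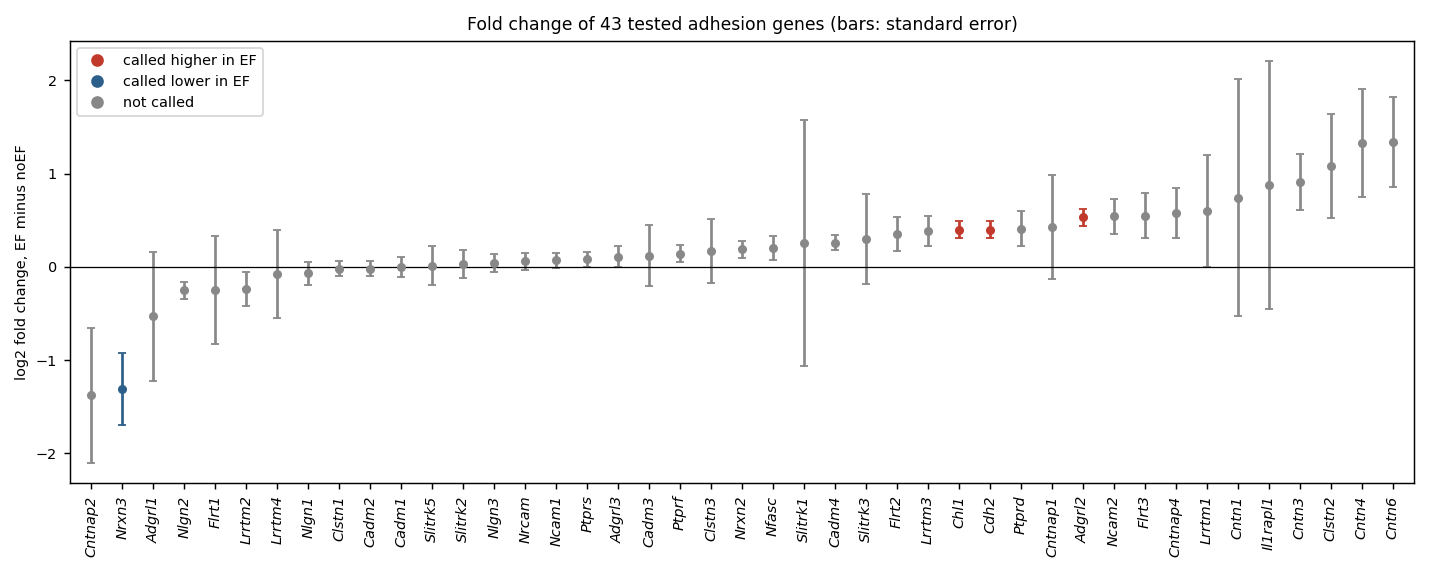
Log2 fold change of EF minus noEF (vertical axis) for the 43 tested adhesion genes in rising order, with bars for the standard error. Adgrl2, Chl1 and Cdh2 (red) were called higher and Nrxn3 (blue) lower, while genes with larger values such as Cntn6 at 1.34 have wide bars and were not called.

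Levels are compared between genes as CPM per kilobase of exon, averaged over the 4 libraries. Cadm4 had the highest level at 146, above 97.7% of all tested genes, followed by Clstn1 at 66.5, Ncam1 at 29.9, Cdh2 at 17.0 and Cadm2 at 16.3. Cadm4 encodes a SynCAM protein of glial contacts, Clstn1 a calsyntenin that links kinesin motors to cargo, and Ncam1 the neural cell adhesion molecule. Nlgn2, Ptprf, Nrxn2, Ptprs, Chl1, Nrcam and Cntn1 lay between 15.2 and 11.7. The mean of Cntn1 was lowered by noEF 1, at 2.11 against 15.3 in EF 1, 14.1 in EF 2 and 15.5 in noEF 2. At the other end were Nrxn3 at 0.202, Cntn4 at 0.151, Cntnap2 at 0.0924, Slitrk1 at 0.0463 and Il1rapl1 at 0.0281, with at most 6.99% of tested genes below them. Some families rested largely on a single gene per kilobase. Nrxn2 held 97.9% to 99.4% of the sum of the neurexins examined here, Clstn1 98.2% to 99% of the calsyntenins, Ncam1 94.9% to 97% of the NCAM pair and Cadm4 85.2% to 88.3% of the SynCAM genes.

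**Figure D2:**
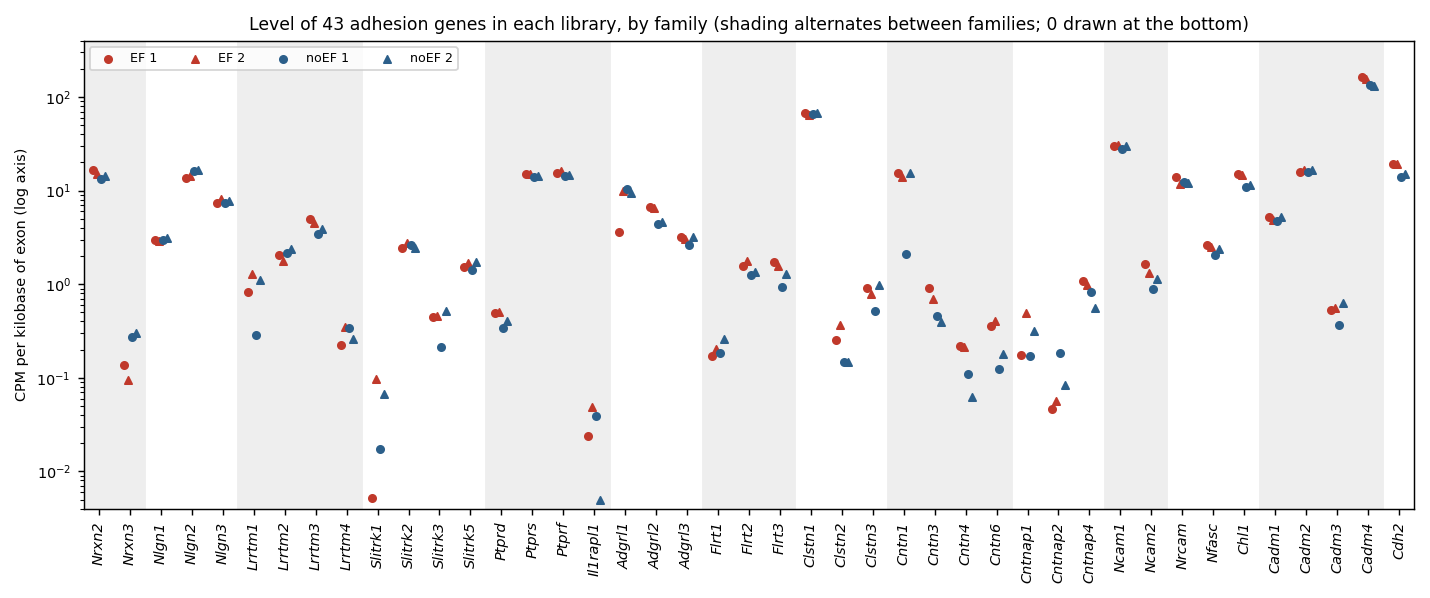
Level in each library as CPM per kilobase of exon (log axis) for the 43 tested genes, grouped by family, with EF in red and noEF in blue. Cadm4 and Clstn1 stand highest, with means of 146 and 66.5, and 1 library lies below the other 3 for Cntn1 (noEF 1) and for Adgrl1 (EF 1).

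Of the axonal ligands, the rare neurexin Nrxn3 fell and the abundant Nrxn2 did not pass. Nrxn2 (ENSMUSG00000033768, GRCm38 chromosome 19, 6418731 to 6544169) measured 229 and 206 CPM in EF and 182 and 198 CPM in noEF. Both EF libraries were above both noEF libraries, but the log2 fold change of 0.19 (SE 0.09) did not pass (edgeR adjusted p = 0.206). Nrxn3 (ENSMUSG00000066392, chromosome 12, 88722876 to 90334935) measured 1.71 and 1.2 CPM in EF and 3.44 and 3.81 CPM in noEF, from 61, 42, 112 and 128 counts. The groups did not overlap, and the log2 fold change was -1.31 (SE 0.39, edgeR adjusted p = 0.0497). That value lies at the threshold, and Nrxn3 was called in 4 of 13 alternatives, with log2 fold changes from -1.59 to -1.08.

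The LAR group of receptor phosphatases binds Slitrk, LRRTM and Il1rapl1 proteins. Ptprf (ENSMUSG00000033295, chromosome 4, 118208213 to 118291405) measured 141 and 150 CPM in EF and 130 and 134 CPM in noEF, a log2 fold change of 0.14 with an SE of 0.09 (edgeR adjusted p = 0.33). Ptprs was at 223 and 227 CPM in EF and 211 and 214 CPM in noEF. Ptprd, at 11.2 and 11.5 against 7.71 and 9.31 CPM, differed by 0.41 on the log2 scale (SE 0.19, edgeR adjusted p = 0.208). In all 3 genes both EF libraries were higher than both noEF libraries, as in 27.6% of all tested genes, and 0 passed the edgeR test (1, Ptprd, had an unadjusted p under 0.05, and DESeq2 and limma-voom called 0).

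Among their partners on the receiving side, 0 of 3 neuroligins were called by edgeR (1 had an unadjusted p under 0.05, and DESeq2 and limma-voom called 0). Nlgn2 (ENSMUSG00000051790, chromosome 11, 69823122 to 69837784), the neuroligin of inhibitory synapses, measured 78.2 and 82.3 CPM in EF and 93.8 and 97.5 CPM in noEF. The groups did not overlap, and the log2 fold change of -0.25 (SE 0.09) did not pass (edgeR adjusted p = 0.1). Once each library's length and GC trend was removed it was -0.28 and passed (edgeR adjusted p = 0.0347). Nlgn1, the neuroligin of excitatory synapses, was at 38.9 to 39.4 CPM in EF and 40 to 42 CPM in noEF, and Nlgn3 ranged from 68.8 to 74.7 CPM over the 4 libraries. Nlgn3 shares 3823 exon bases on the same strand with Gm21986, which has no row in the table, so its level may include reads of either.

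LRRTM and Slitrk genes, which encode leucine-rich repeat proteins that organise synapses, gave 0 edgeR calls of 8 tested genes (1 unadjusted p under 0.05, and 0 calls by DESeq2 and limma-voom). Lrrtm3 (ENSMUSG00000042846, chromosome 10, 63928472 to 64090277) led its family with 21.1 and 19 CPM in EF and 14.5 and 16.4 CPM in noEF, a log2 fold change of 0.38 with an SE of 0.16 (edgeR adjusted p = 0.159). Lrrtm2 was at 12.4 and 10.7 CPM in EF and 13 and 14.3 CPM in noEF, but 95 of its exon bases overlap Ctnna1, a gene of 222 to 250 CPM, on the opposite strand, so its level is uncertain. Lrrtm1 had 0.86 CPM in noEF 1 but 2.52 to 3.95 CPM in the other 3 libraries, and Lrrtm4 stayed at 1.37 to 2.15 CPM. Slitrk2 ranged from 19.7 to 22.2 CPM, Slitrk5 from 7.44 to 9.22 CPM and Slitrk3 from 1.04 to 2.53 CPM, with overlapping groups in each. Slitrk1 had 1, 18, 3 and 12 counts in EF 1, EF 2, noEF 1 and noEF 2. Slitrk4 had 0 counts in each, which allows a level of up to 0.0922 CPM for counting error alone (3 counts in noEF 1). Il1rapl1, a receptor of the interleukin-1 family that binds Ptprd, had 8 and 16 counts in EF and 12 and 0 in noEF.

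Latrophilins are adhesion receptors coupled to G proteins, and Adgrl2 (ENSMUSG00000028184, chromosome 3, 148815583 to 148990555) gave the smallest p of the 43 tested genes. It measured 93.9 and 92.7 CPM in EF and 62.8 and 66.1 CPM in noEF. The replicates lay within a few CPM of each other and the groups far apart, with 93.3 ± 0.825 against 64.5 ± 2.31 CPM (SD, n = 2 each). The log2 fold change was 0.53 (SE 0.09, edgeR adjusted p = 0.0027), and Adgrl2 was called in 13 of 13 alternatives, with values from 0.41 to 0.62. Adgrl3 overlapped between groups, at 57.1 and 54.4 CPM in EF and 47 and 56.4 CPM in noEF. The FLRT proteins are the leucine-rich partners of latrophilins. Flrt2 was at 12 and 13.8 against 9.83 and 10.3 CPM and Flrt3 at 8.38 and 7.62 against 4.58 and 6.33 CPM in EF and noEF. Both EF libraries were higher in each, as in 27.6% of all tested genes, with log2 fold changes of 0.35 (SE 0.18) and 0.55 (SE 0.24) that did not pass (edgeR adjusted p = 0.258 and 0.176). Flrt1 was near 1 CPM, from 1.01 to 1.55, with overlapping groups.

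The calsyntenins, cadherin-like proteins of the postsynaptic membrane and of transport vesicles, gave 0 edgeR calls of 3 (0 unadjusted p under 0.05, and 0 calls by DESeq2 and limma-voom). Clstn1 (ENSMUSG00000039953, chromosome 4, 149586468 to 149648899) measured 317 and 298 CPM in EF and 307 and 317 CPM in noEF, and its log2 fold change of -0.02 (SE 0.08) did not pass (edgeR adjusted p = 0.919). Clstn2 was low, with 51 and 73 counts in EF and 27 and 28 in noEF, a log2 fold change of 1.08 with an SE of 0.56 (edgeR adjusted p = 0.264). Clstn3 overlapped between groups at 2.55 to 4.88 CPM.

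**Figure D3:**
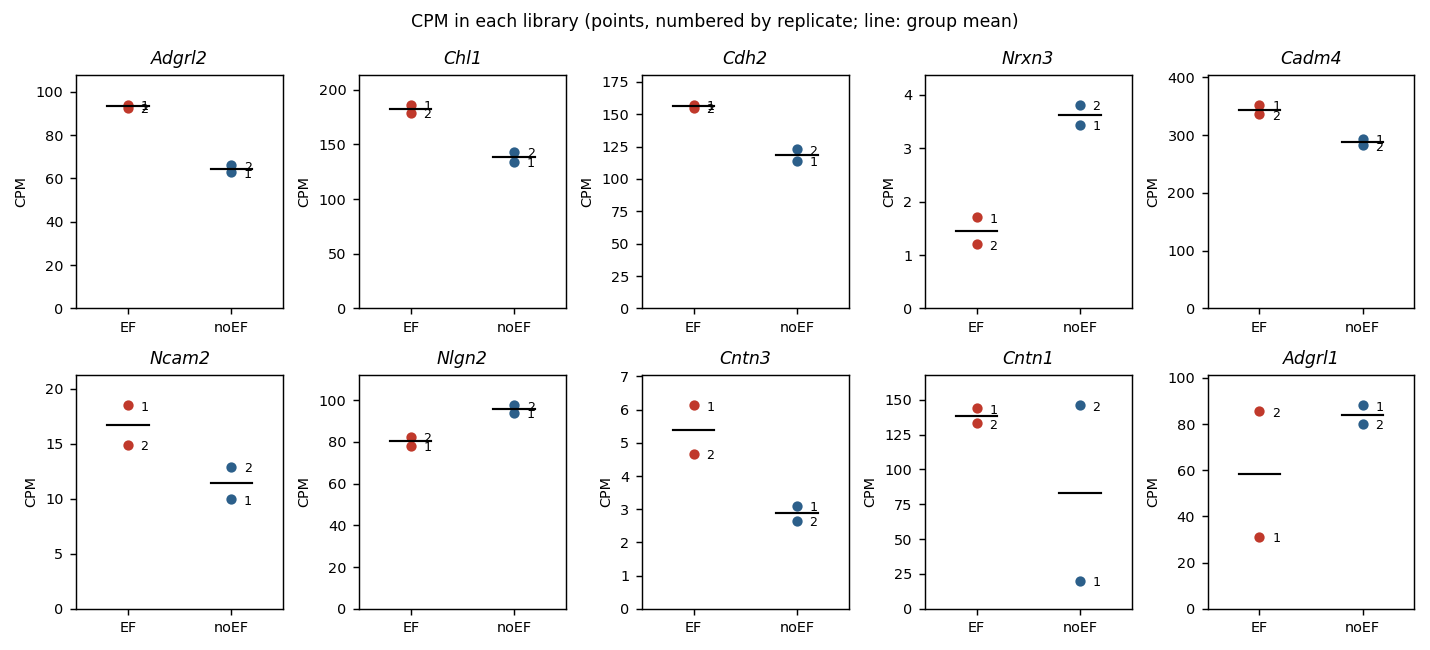
CPM in each of the 4 libraries for 10 adhesion genes, with points numbered by replicate and a line at each group mean. Adgrl2, Chl1 and Cdh2 have separate groups with close replicates. Nrxn3 has separate groups at a low level, with EF replicates at 1.71 and 1.2 CPM. Cntn1 in noEF 1 (19.9 CPM) and Adgrl1 in EF 1 (31.1 CPM) lie far below the other 3 libraries.

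Among the immunoglobulin proteins of axons, Chl1, the close homologue of L1 that promotes neurite growth, was the called gene. Chl1 (ENSMUSG00000030077, chromosome 6, 103510586 to 103750211) measured 186 and 179 CPM in EF and 134 and 143 CPM in noEF, or 183 ± 4.54 against 138 ± 6.5 CPM (SD, n = 2 each). The groups were apart by more than the replicates, with a log2 fold change of 0.40 with an SE of 0.09 (edgeR adjusted p = 0.0091). Without EF 1 the value was 0.38 and missed the threshold (edgeR adjusted p = 0.0591). Removal of the length and GC trend left 0.24 (edgeR adjusted p = 0.0383). Nrcam, a binding partner of contactins, was as abundant but overlapped between groups, at 185 and 158 CPM in EF and 167 and 162 CPM in noEF. Nfasc, the neurofascin gene, was at 36.7 and 35.6 CPM in EF and 29 and 33.9 CPM in noEF and did not pass (edgeR adjusted p = 0.376). L1cam had 0 and 6 counts in EF and 0 and 4 in noEF.

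Chl1 lies between contactin genes on chromosome 6, and their values are set side by side here, a choice made after the values were seen. Cntn3, Chl1, Cntn6 and Cntn4 follow each other over 4.54 megabases (102162655 to 106699310), and no other gene lies between them among the 22022 of the table's 23874 genes that had a position. Contactins are membrane-anchored immunoglobulin proteins of axons. Cntn3 measured 6.13 and 4.67 CPM in EF and 3.1 and 2.65 CPM in noEF, a log2 fold change of 0.91 with an SE of 0.30 (edgeR adjusted p = 0.074). Cntn6 measured 2.35 and 2.61 CPM in EF and 0.799 and 1.16 CPM in noEF, a log2 fold change of 1.34 with an SE of 0.48 (edgeR adjusted p = 0.0969). Cntn4 measured 1.88 and 1.81 CPM in EF and 0.922 and 0.535 CPM in noEF, a log2 fold change of 1.33 with an SE of 0.58 (edgeR adjusted p = 0.171). In each of the 4 genes both EF libraries were above both noEF libraries, as in 27.6% of all tested genes, but of the 4 Chl1 alone passed, and nothing is read from that count since the genes were picked with their values known. The next tested genes of the table on either side were not called, with log2 fold changes of -0.33 (SE 0.23) for Pdzrn3 and 0.10 (SE 0.12) for Trnt1, and Il5ra had no count. Cntn3 was called higher with library totals (1.00) and with no filter (0.91).

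The stretches before the starts of these 4 neighbours are shown because the genes lie side by side and their log2 fold changes had the same sign. The sequences are the 250 bases before the start of the first listed RefSeq entry of each gene on GRCm38.p6, which need not be the most upstream. Cntn4 had 2 entries, of which the first listed is shown. Of the 47 adhesion genes 36 had such an entry. Capitals mark the E-box CANNTG, read from left to right without overlap. It was searched on both strands, which is the same search because the motif is its own reverse complement.
Cntn3, chr6:102464668-102464917, minus strand: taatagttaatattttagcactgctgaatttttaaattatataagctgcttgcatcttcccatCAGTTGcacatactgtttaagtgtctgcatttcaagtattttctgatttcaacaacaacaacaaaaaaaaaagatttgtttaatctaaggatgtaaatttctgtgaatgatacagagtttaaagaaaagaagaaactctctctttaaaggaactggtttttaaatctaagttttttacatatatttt
Chl1, chr6:103510626-103510875, plus strand: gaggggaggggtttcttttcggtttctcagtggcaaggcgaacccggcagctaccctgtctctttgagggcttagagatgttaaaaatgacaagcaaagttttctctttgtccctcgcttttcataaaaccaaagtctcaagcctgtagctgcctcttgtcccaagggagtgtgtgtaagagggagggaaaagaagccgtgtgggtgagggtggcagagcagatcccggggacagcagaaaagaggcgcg
Cntn6, chr6:104492794-104493043, plus strand: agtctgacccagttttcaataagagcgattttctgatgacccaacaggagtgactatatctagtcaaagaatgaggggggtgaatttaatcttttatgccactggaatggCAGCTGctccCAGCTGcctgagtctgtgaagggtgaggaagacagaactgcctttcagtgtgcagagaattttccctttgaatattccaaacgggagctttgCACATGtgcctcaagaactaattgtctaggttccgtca
Cntn4, chr6:106118515-106118764, plus strand: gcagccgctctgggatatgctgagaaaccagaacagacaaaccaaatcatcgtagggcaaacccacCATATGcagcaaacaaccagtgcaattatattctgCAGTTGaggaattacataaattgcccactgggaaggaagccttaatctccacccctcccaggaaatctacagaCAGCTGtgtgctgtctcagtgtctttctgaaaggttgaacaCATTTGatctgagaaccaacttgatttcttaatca
Counted without overlap, the E-box occurred 1 time before Cntn3, 0 times before Chl1, 3 times before Cntn6 and 4 times before Cntn4. Before Cntn6 a further match, CATGTG, overlaps the marked CACATG and is neither marked nor counted. At least 1 match stood in 66.2% of all 32851 promoter entries over the same 250 bases. Searched on both strands, the TATA box letters TATAAA stood in none of the 4 stretches, compared with 12.4% of all entries. Neither did the CCAAT box (CCAAT), found in 33.8% of all entries, nor the GC box in the form GGGCGG, found in 32.7%. The stretches differed in base composition, from 26.4% GC and 0 CpG before Cntn3 to 52.4% GC and 8 CpG before Chl1, and the median over all entries was 6 CpG. All 4 stretches lie inside the extent that GENCODE gives the gene, so other starts further upstream are annotated. Each match is a description of letters only.

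**Figure D4:**
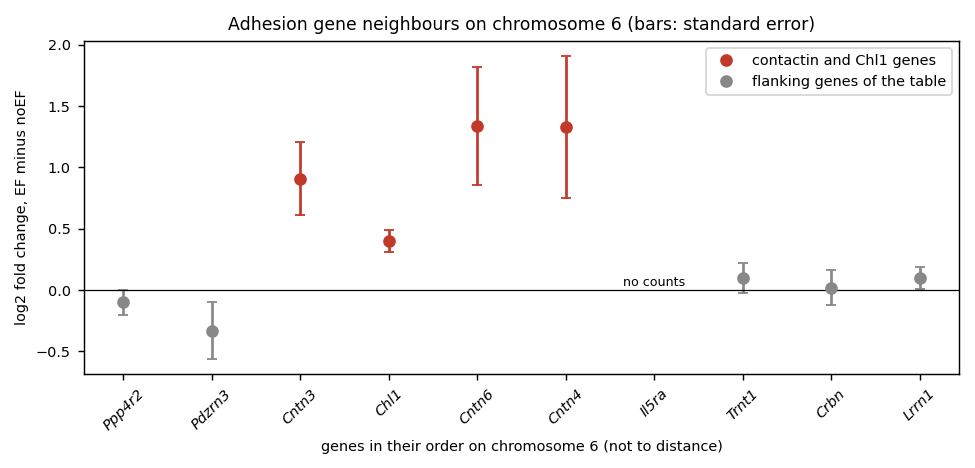
Log2 fold change of EF minus noEF with standard error for 10 genes of the count table in their order on chromosome 6, spaced evenly. The 4 adhesion genes (red) lie between 0.40 and 1.34 and the flanking genes (grey) between -0.33 and 0.10, with no value for Il5ra.

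The other contactin and Caspr genes gave 0 edgeR calls (1 of them, Cntnap4, had an unadjusted p under 0.05, and DESeq2 and limma-voom called 0). Cntn1 is described with Adgrl1 below. Cntn2 had 0 and 2 counts in each group, and Cntn5 had 5 counts in EF 2 and 0 in the other 3 libraries. The Caspr genes encode neurexin-like membrane proteins, some of which bind contactins. Cntnap4 measured 6.83 and 6.1 CPM in EF and 5.13 and 3.51 CPM in noEF, a log2 fold change of 0.58 with an SE of 0.27 (edgeR adjusted p = 0.206). Cntnap2 had 17 and 20 counts in EF and 61 and 29 in noEF, but its log2 fold change of -1.38 (SE 0.72) did not pass (edgeR adjusted p = 0.264). Cntnap1 had 37 and 100 counts in EF and 33 and 63 in noEF, and 233 of its exon bases overlap Plekhh3 on the opposite strand, a gene of 37.3 to 39.3 CPM, so without known strand its low level is uncertain.

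Cdh2, which encodes N-cadherin (ENSMUSG00000024304, chromosome 18, 16588877 to 16809246), measured 157 and 155 CPM in EF and 114 and 123 CPM in noEF. The EF replicates nearly coincided and both were above noEF, with 156 ± 2.08 against 118 ± 6.06 CPM (SD, n = 2 each). The difference was 0.40 on the log2 scale (SE 0.09, edgeR adjusted p = 0.0103). Cdh2 was called in 11 of 13 alternatives, with values from 0.30 to 0.48, and missed the threshold without EF 1 (edgeR adjusted p = 0.0539).

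The NCAM and SynCAM genes include the most abundant members, and edgeR called 0 of 6 (2, Ncam2 and Cadm4, had an unadjusted p under 0.05, DESeq2 called 1, Cadm4, and limma-voom 0). Ncam1 (ENSMUSG00000039542, chromosome 9, 49502136 to 49798925) measured 263 and 269 CPM in EF and 245 and 261 CPM in noEF, a log2 fold change of 0.07 with an SE of 0.08 (edgeR adjusted p = 0.651). Ncam2 (ENSMUSG00000022762, chromosome 16, 81200697 to 81626828), at 18.5 and 14.9 CPM in EF and 9.96 and 12.9 CPM in noEF, had a log2 fold change of 0.54 with an SE of 0.19 (edgeR adjusted p = 0.087). Its groups did not overlap, and it was called in 4 of 13 alternatives. Cadm4 (ENSMUSG00000054793, chromosome 7, 24482023 to 24504539) measured 352 and 336 CPM in EF and 294 and 282 CPM in noEF, a log2 fold change of 0.26 (SE 0.08) just outside the threshold (edgeR adjusted p = 0.0627). Once each library's length and GC trend was removed it was 0.41 and passed (edgeR adjusted p = 0.00248). Cadm4 is the shortest of the 47 genes, at 2161 exon bases. Cadm1, Cadm2 and Cadm3 overlapped between groups, at 49.1 to 55.3, 155 to 164 and 2.64 to 4.61 CPM. For Cadm3, 361 exon bases overlap Ackr1 on the same strand, so that low level is uncertain.

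In 2 abundant genes a single library lay apart. Cntn1 (ENSMUSG00000055022, chromosome 15, 92051165 to 92341967), an axonal and glial contactin, measured 144 and 133 CPM in EF, 146 CPM in noEF 2 and 19.9 CPM in noEF 1, which is 7.08-fold below the mean of the other 3. Its log2 fold change of 0.74 with an SE of 1.27 (edgeR adjusted p = 0.815) was -0.07 without noEF 1 and 2.79 without noEF 2, where noEF 1 alone stood for the group and the gene was called (edgeR adjusted p = 1.25e-41). Adgrl1 (ENSMUSG00000013033, chromosome 8, 83900105 to 83941954) shares 1107 exon bases with Gm10644, a gene of under 1 CPM, on the opposite strand. It measured 31.1 CPM in EF 1 and 85.5, 88.1 and 80.1 CPM in EF 2, noEF 1 and noEF 2, a 2.72-fold distance. Its log2 fold change of -0.53 with an SE of 0.69 (edgeR adjusted p = 0.749) was 0.02 without EF 1 and -1.43 without EF 2, where it was called (edgeR adjusted p = 9.87e-07). A search chosen after these values were seen looked for tested genes of at least 20 CPM on average with 1 library at least 2-fold outside the other 3, which had to lie within 1.5-fold of each other. It found 27 of 7350 genes, or 0.367%, with 6 to 8 genes in each library, and Cntn1 and Adgrl1 among 20 adhesion genes of that level. Such genes occurred in every library, and no difference between EF and noEF can be read from either gene.

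Other genes of these adhesion systems were taken from 5 lists of 69 genes. Among 16 secreted and bridging partners 14 were tested, of which 4 were higher, against 3.83% of all tested genes, and 2 lower, against 4.99%. Gpc4, a glypican that binds LRRTM4 and Ptprs, measured 63 and 56.9 CPM in EF and 38 and 41.2 CPM in noEF, a log2 fold change of 0.60 with an SE of 0.11 (edgeR adjusted p = 0.00436). The C1q-like genes were called in opposite directions. C1ql1, whose product is a ligand of the adhesion receptor Adgrb3, was at 6.67 and 7.97 CPM in EF and 16.8 and 19.4 CPM in noEF (-1.31, edgeR adjusted p = 5.60e-04), whereas C1ql3 was at 2.61 and 2.72 against 0.799 and 0.803 CPM (1.73, edgeR adjusted p = 0.0343). C1ql1 was called in 13 of 13 alternatives and C1ql3 in 8 of 13, not with limma-voom (adjusted p = 0.0511), with the trend and block together (0.0648), or without EF 1 (0.123), EF 2 (0.107) or noEF 1 (0.0705). Lgi4, a secreted protein of glia known from myelination, was at 3.19 and 2.72 CPM in EF and 9.68 and 7.14 CPM in noEF (-1.51, edgeR adjusted p = 0.00285). The pentraxins Nptx1 and Nptx2 were the other higher genes of the list, at 0.50 and 1.46.

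Of 27 scaffold genes, which tie adhesion proteins to receptors and release sites, 25 were tested. Of these 1 was higher, against 3.83% of all tested genes. That gene was Lin7c, a PDZ protein of the complex that binds neurexins, at 154 and 144 CPM in EF and 118 and 120 CPM in noEF (0.33, edgeR adjusted p = 0.0278). Lin7c was called in 8 of 13 alternatives, not with the replicate block (edgeR adjusted p = 0.07), the length and GC trend removed (0.0542), both together (0.135), or without EF 1 (0.222) or noEF 1 (0.0851). Of 10 cytoskeletal anchors edgeR called 0 (3 had an unadjusted p under 0.05, and DESeq2 and limma-voom called 0). The 2 smallest p-values there belonged to Ctnnd1 and Ctnnb1, the p120 and beta catenins that bind N-cadherin, with log2 fold changes of 0.26 and 0.23 (edgeR adjusted p = 0.0891 and 0.0963). Of 8 teneurin and Unc5 genes, whose products bind latrophilins and FLRT proteins, 6 were tested and 0 called by edgeR, DESeq2 or limma-voom (1 unadjusted edgeR p under 0.05), with Unc5b at -0.41 and Tenm3 at 0.65 (edgeR adjusted p = 0.188 and 0.274). Of 8 genes of the proteases that cut adhesion proteins 1 was higher, against 3.83% of all tested genes, and 1 lower, against 4.99%. Adam10, the sheddase of N-cadherin and neuroligins, was higher at 174 and 161 against 132 and 141 CPM (0.30, edgeR adjusted p = 0.0458). Adam10 was called in 7 of 13 alternatives, not with the replicate block (edgeR adjusted p = 0.11), the trend removed (0.20, adjusted p = 0.0878), both together (0.189), or without EF 1 (0.315), EF 2 (0.059) or noEF 1 (0.203). Psenen, a gamma-secretase subunit, was lower at 100 and 117 CPM in EF and 176 and 155 CPM in noEF (-0.61, edgeR adjusted p = 0.00199). Once each library's trend was removed Psenen was at -0.29 (edgeR adjusted p = 0.0169), and with the block as well it missed the threshold (-0.30, adjusted p = 0.0682). The list medians were 0.31 for the secreted partners, 0.12 for the scaffolds, -0.04 for the anchors, 0.10 for the teneurin and Unc5 genes and 0.08 for the proteases, compared with 0.01 for all tested genes.

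Counts of calls under other settings are given beside those over all genes. With library totals as scaling 6 adhesion genes were higher, against 7.98% of all genes, and 0 lower, against 3.54%. With no filter 6 of 46 were higher, against 5.28%, and 1 lower, against 6.95%, and in both settings Ncam2, Cadm4 and Cntn3 were the added genes. With RLE size factors 3 were higher and 0 lower (3.63% and 4.92% of all genes), with limma-voom 3 and 0 (3.96% and 5.18%), and with the replicate number as a block 3 and 0 (2.87% and 3.98%). With the length and GC trend removed 4 were higher and 2 lower, against 4.17% and 6.25%, the added genes being Cadm4 and Nlgn2. With that trend and the block together Adgrl2 and Cadm4 were the 2 higher genes and 0 were lower, against 1.9% and 2.76%. Without EF 1 the shares of all genes called higher and lower were 1.47% and 2.29%, without EF 2 2.86% and 5.53%, without noEF 1 2.8% and 3.38%, and without noEF 2 5.35% and 7.21%.

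**Figure D5:**
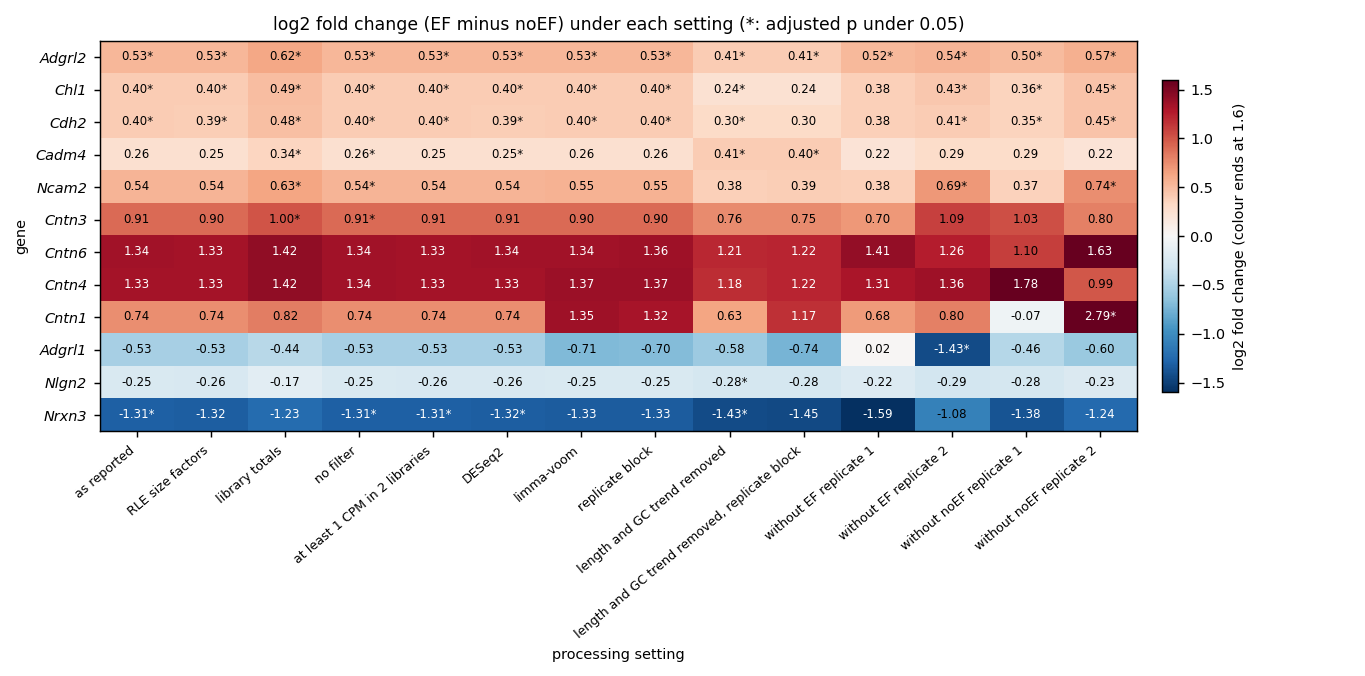
Log2 fold change (colour and number) of 12 adhesion genes in rows under the reported setting and 13 alternatives in columns, with an asterisk where the adjusted p was under 0.05. Adgrl2 carries an asterisk in every column, from 0.41 to 0.62, Nrxn3 in 5 of the columns with the reported one, and Cntn1 and Adgrl1 change sign when noEF 1 or EF 1 is left out.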

How the data were processed

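RNA-seq libraries of polyadenylated RNA were compared between EF and noEF, with groups and replicate numbers taken from the sample titles and table columns matched to samples by library name. The deposited values are raw counts for each gene, whole numbers whose sums differ between libraries. The submitters' processing notes name GRCm38 as the build and the tools StringTie 2.2.1, HISAT2 2.0.4 and DESeq2 1.44.0, with no role or order. How reads were counted, on which annotation and whether by strand, is not given in the sources. The protocol describes no step that keeps the strand. Counts may include PCR copies, so counting limits are too narrow.

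Counts were tested with edgeR 4.0.16 (R 4.3.3): filterByExpr (minimum count 10, minimum total 15), TMM scaling, robust quasi-likelihood F test, Benjamini-Hochberg adjustment over all 14263 tested genes, threshold 0.05. The procedure was tested on simulated data. The SE was taken as the size of the log2 fold change over the root of its F. Alternatives were RLE or library totals as scaling, other filters, DESeq2 1.42.0, limma-voom 3.58.1, the replicate number as a block, removal of each library's trend on exon length and GC content (mgcv 1.9.3), that trend with the block, and each library left out in turn. Positions, exon lengths and GC come from GENCODE M21 on GRCm38, promoter sequences from RefSeq on GRCm38.p6, and overlaps from bedtools 2.31.1. Of the table's genes 22022 had a position and 13438 tested genes had length and GC, and all 47 adhesion genes had both. The exons of 6 adhesion genes overlap another gene of the table.

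The members and lists were chosen with earlier results of these data known. Every adhesion gene is named. Full values are given for those called, for those called in an alternative with TMM and all libraries, and for the highest per kilobase of each family. In the partner lists called genes are named, or else the 2 with the smallest p. Ptprd, Flrt3, Clstn2, Cntnap2, Cntn6 and Cntn4 were given full values after these were seen.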

Additional observations from a re-analysis of the deposited data

How the results depend on the processing

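Adgrl2 kept its direction and call under all 13 alternatives, Chl1 and Cdh2 in 11 of 13 (not without EF 1 and not with the length and GC trend removed together with the replicate block), and Nrxn3 in 4 of 13. The count of higher adhesion genes, 3 as reported, was 6 with library totals and 6 with no filter, and ranged from 1 to 6 with a library left out. The count of lower ones, 1 as reported, was 0 with RLE size factors, 0 with library totals, 0 with limma-voom and 2 with the length and GC trend removed, and ranged from 0 to 1 with a library left out. Library totals moved the median of all genes from 0.01 to 0.09. Over all genes, 546 were higher and 712 lower as reported. Library totals gave 1138 higher and 505 lower, no filter 915 and 1203, and leaving out a library 217 to 790 and 337 to 1065.

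No adhesion gene called as reported changed sign under any alternative. Of the 43 tested, 7 went below 0 with the length and GC trend removed (Adgrl3, Cadm1, Nrcam, Slitrk5, Slitrk2 at -0.13, Ncam1 at -0.02 and Nlgn3 at -0.06), and 4 went above 0 with library totals (Cadm2, Lrrtm4, Nlgn1 and Clstn1 at 0.07). With limma-voom and with the replicate block 1 gene, Slitrk1, went below 0. With a library left out 4 to 10 genes changed sign, counting both directions. Among the genes given with a fold change, with a library left out, Slitrk2 ranged from -0.06 to 0.11, Clstn1 from -0.06 to 0.02, Nlgn3 from -0.02 to 0.09, Cntn1 from -0.07 to 2.79, Adgrl1 from -1.43 to 0.02 and Lrrtm1 from -0.07 to 1.90. The cause of these changes was not tested.

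The replicate numbers were not taken to pair libraries, since no label ties them to a shared culture. These numbers come from the sample titles. By library name EF 2 is E3 and noEF 2 is noEF2, so the names do not give them the same number. The replicate block therefore rests on the titles alone. The deviations of same-numbered libraries from their group means correlated at -0.0898 over 14263 genes. With the replicate block 3 adhesion genes were higher and 0 lower, as Nrxn3 missed the threshold. With the block and the trend removed together 2 were higher (Adgrl2 and Cadm4) and 0 lower, against 271 higher and 393 lower over all genes, and Slitrk2, Ncam1 and Nlgn3 were at -0.14, -0.02 and -0.06. With 2 libraries a group and 1 residual degree of freedom under the block, small differences in members near 1 CPM were not detectable. A library left alone in its group was assumed to vary like the other group.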

Other observations

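Within families the shares per kilobase of exon gave a further view of the same counts. Of the neuroligin sum, Nlgn2 held 56.5% and 56.5% in EF and 60.9% and 60.9% in noEF, and Nlgn3 held 31.2% and 32% in EF and 27.9% and 27.8% in noEF, with Nlgn1 between 11.2% and 12.3% in all 4 libraries. Of the LRRTM sum, Lrrtm2 held 25.5% and 22.4% in EF and 34.8% and 31.3% in noEF. The level of Lrrtm2 is uncertain because of its overlap with Ctnna1. Its share in noEF 1 also rests on a low Lrrtm1 there, at 4.58% against 10.3% in EF 1, 16.5% in EF 2 and 14.7% in noEF 2. Not every family is shown here. Of the L1 family, Chl1 held 47.8% and 50.4% in EF and 42.7% and 44.4% in noEF, and Nrcam 43.9% and 40.9% in EF and 49.2% and 46.4% in noEF. Shares in one family are not independent of each other, and they were not tested.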
